A study of Homo sapiens with 18 samples.

Results

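Chromosome 19 is known for its many zinc finger genes, and 246 of its protein-coding genes are named ZNF followed by a number. They were taken from 1436 protein-coding genes of chromosome 19 and 19756 of chromosomes 1 to 22 and X in the hg19 assembly, and were compared with the other 1190 protein-coding genes of chromosome 19. The cells were undifferentiated HL-60/S4, a human myeloid leukemia line, and no differentiating agent was added. In xChIP, cells fixed once with formaldehyde were sonicated before the antibody was added, whereas in xxChIP the antibody was bound to fixed, permeabilized cells and fixed again there, with sonication as the later step. Each protocol was run with rabbit polyclonal antibodies to linker histone H1.2 or H1.5, in 3 replicates per combination (12 samples). The peaks of the 3 replicates had been merged into 1 list per combination, called here xChIP H1.2 and xChIP H1.5, then xxChIP H1.2 with xxChIP H1.5. Where 4 values follow each other without names, they are in this order.

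Linker histone H1 binds the nucleosome where DNA enters and leaves it. Most proteins encoded by the chromosome 19 ZNF genes bind DNA through arrays of C2H2 fingers, and many carry a KRAB domain, which recruits the corepressor TRIM28 and, through it, the H3K9 methyltransferase SETDB1. The genes stand in tandem clusters, their finger arrays lie mostly in the last exon, and these exons are known in many cell types for H3K9me3, a mark of heterochromatin.

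These features were seen in the hg19 sequence. A KRAB core was found in the translated coding sequence of 174 of the 246 members. In the 245 members with an intact reading frame, 3038 of 3094 finger matches (98.2%) lay in the last exon, with a median of 12 fingers per gene and a range from 1 to 36. The exception was ZNF274, whose coding sequence was not open throughout in this assembly. The 3′ exon was longer than in the other genes of the chromosome, with medians of 3301 and 745.5 bp, and its GC content was lower, with medians of 40.7% and 57.2%.

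The sequences of 2 members are given as examples of exons and a promoter that the lists covered differently. As extremes of coverage, they do not stand for the other members. ZNF470 and ZNF554 are shown because an xxChIP list and an xChIP list, respectively, covered their whole gene bodies. Each stretch below encodes 3 consecutive finger units of 84 bases in the last exon, on the plus strand of hg19, at chr19:57088548-57088799 for ZNF470 and at chr19:2834272-2834523 for ZNF554. Capitals mark the codons of the conserved linker that joins one finger to the next.
ZNF470: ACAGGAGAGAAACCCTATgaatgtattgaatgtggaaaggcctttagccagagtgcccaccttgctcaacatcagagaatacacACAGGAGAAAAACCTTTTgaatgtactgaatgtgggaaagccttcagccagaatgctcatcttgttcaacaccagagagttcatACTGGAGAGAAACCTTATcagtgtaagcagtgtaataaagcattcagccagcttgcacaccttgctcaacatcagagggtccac
ZNF554: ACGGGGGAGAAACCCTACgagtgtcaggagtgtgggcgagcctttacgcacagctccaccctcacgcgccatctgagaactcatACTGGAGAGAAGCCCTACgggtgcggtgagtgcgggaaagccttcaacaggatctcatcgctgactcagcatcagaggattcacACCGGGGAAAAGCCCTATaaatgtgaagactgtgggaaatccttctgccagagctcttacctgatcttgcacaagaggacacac

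The ZNF470 stretch had a GC content of 44.4% and no CG dinucleotide, and was covered to 100% by xxChIP H1.2, xxChIP H1.5 and xChIP H1.5 peaks and to 0% by xChIP H1.2. The ZNF554 stretch, with the same arrangement of linkers, had a GC content of 54.8% and 11 CG dinucleotides, and was covered to 100% by xChIP H1.2 but to 0% by the other lists. The promoter of ZNF554 is shown because both xChIP lists and neither xxChIP list covered it. The 250 bases before its transcription start site (TSS) are given 5′ to 3′ on the plus strand at chr19:2819616-2819865, with CG dinucleotides in capitals.
ZNF554: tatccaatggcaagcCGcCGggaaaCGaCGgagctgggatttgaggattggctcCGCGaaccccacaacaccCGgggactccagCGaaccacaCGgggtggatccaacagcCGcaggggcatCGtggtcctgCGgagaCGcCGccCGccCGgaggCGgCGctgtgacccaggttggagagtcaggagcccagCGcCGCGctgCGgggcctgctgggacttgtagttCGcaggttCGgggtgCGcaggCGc

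This stretch held 26 CG dinucleotides at a GC content of 68.8% and was covered to 100% by both xChIP lists and to 0% by both xxChIP lists. Base composition did not go with the same lists at every promoter, since the 250 bases before the TSS of ZNF470 (chr19:57078587-57078836), with 15 CG dinucleotides at 64% GC, were covered to 100% by xxChIP H1.2 but to 0% by the other lists. The median over the 246 members was 14 CG dinucleotides, as over the other 1190 genes, but the members spanned a narrower middle range, from 10 to 18 against 6 to 22.75 (lower to upper quartile).

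The first comparison concerned the promoter, taken as the TSS ± 1000 bp and counted from 1 shared bp. An xChIP H1.2 peak lay there in 72 of the 246 ZNF genes, or 29.3% (95% Wilson interval 23.9% to 35.2%), against 60.6% (57.8% to 63.3%) of the other genes. The direction was opposite in the xxChIP lists. An xxChIP H1.2 peak lay at 63 ZNF promoters, or 25.6% (20.6% to 31.4%), against 8.82% (7.34% to 10.6%) of the other promoters, and an xxChIP H1.5 peak at 48, or 19.5% (15.0% to 24.9%), against 8.15% (6.73% to 9.84%). For xChIP H1.5 the shares were 21.5% (16.9% to 27.1%, 53 genes) and 20.8% (18.6% to 23.2%), so the intervals overlapped. Without peaks of 20 kb or more the xChIP H1.2 difference was much smaller, with shares of 26.0% (20.9% to 31.8%) and 31.5%. Over all 1436 genes of the chromosome the share with a promoter peak was 55.2%, 21.0%, 11.7% and 10.1% over the 4 lists, and over all 19756 genes it was 48.2%, 21.6%, 8.77% and 7.93%.

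Such intervals cover counting error over genes only. Each combination of protocol and antibody was present as 1 merged list, so that no spread between replicates could be had, the depth was unknown, and no difference was tested. Neighbouring genes are not independent either. Peaks shared by promoters or bodies of several members were not counted. No xChIP H1.2 or xxChIP H1.5 peak overlapped the 3′ exons of several members, and only 1 xChIP H1.5 peak and 2 xxChIP H1.2 peaks did.

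Chromosome 19 ZNF promoters were also unlike ZNF promoters elsewhere. Of the 262 ZNF genes on other chromosomes, 54.2% had an xChIP H1.2 peak at the promoter, 26.0% one of xChIP H1.5, 8.02% one of xxChIP H1.2 and 6.87% one of xxChIP H1.5. In 3 of the 4 lists these shares were thus nearer to those of the other genes of chromosome 19 than to those of its ZNF genes. Base composition moved with the difference from the other genes of chromosome 19. ZNF promoters had a median GC content of 52.1%, against 58.3% in the other genes of the chromosome. Among promoters with a GC content under 50% (76 ZNF and 117 other genes), 28.9% of ZNF and 29.1% of other promoters had an xxChIP H1.2 peak, and 27.6% and 27.4% an xxChIP H1.5 peak. The xChIP H1.2 shares in this subset were 19.7% and 41.9%, so the lower share in ZNF genes was seen at low GC content also. The part of GC content in the xxChIP difference was not tested further.

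**Figure D1:**
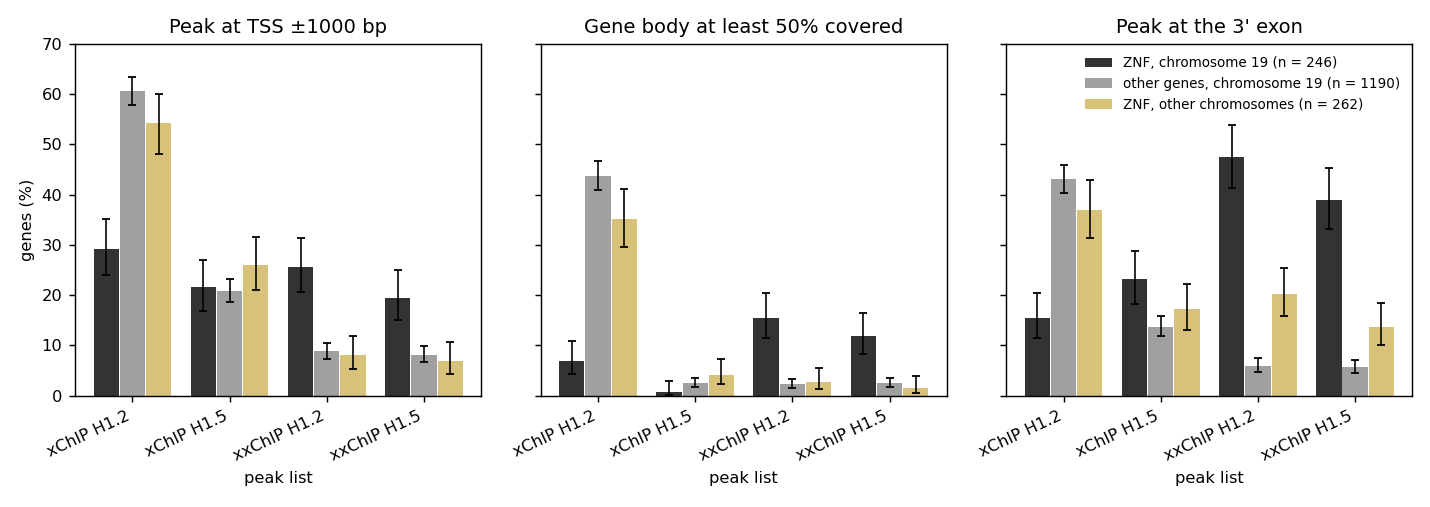
Share of genes (%) with a peak at the TSS ± 1000 bp, with at least 50% of the gene body covered, and with a peak at the 3′ exon, for each peak list and 3 sets of genes, with 95% Wilson intervals as error bars. In the xxChIP lists the chromosome 19 ZNF bars stand above both other sets in every panel, and in the xChIP H1.2 list below both.

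The second comparison concerned the gene body. Over the 4 lists, peaks covered ZNF gene bodies to a median of 10.7%, 9.44%, 18.7% and 15.6%. In the other genes of the chromosome the medians were 41%, 7.64%, 0% and 0%. At least 50% of the body was covered in 17 ZNF genes by xChIP H1.2 (6.91%, interval 4.36% to 10.8%), in 2 by xChIP H1.5 (0.813%), in 38 by xxChIP H1.2 (15.4%, 11.5% to 20.5%) and in 29 by xxChIP H1.5 (11.8%, 8.34% to 16.4%). The corresponding shares of the other genes were 43.8%, 2.44%, 2.27% and 2.44%, and those of the whole chromosome 37.5%, 2.16%, 4.53% and 4.04%. ZNF bodies were thus covered at this level less often by xChIP H1.2 and more often by both xxChIP lists, with intervals that did not overlap. Without peaks of 20 kb or more these differences were smaller. The shares of ZNF and other genes were then 4.07% and 14.4% in xChIP H1.2 and 6.50% and 1.51% in xxChIP H1.2. In xxChIP H1.5 they were 5.29% and 1.76%.

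Here too base composition moved with the result, since the median GC content of the bodies was 43.6% in ZNF genes and 54.0% in the others. Among bodies under 45% GC (163 ZNF and 77 other genes), mean coverage was 33.1% and 29.8% in xxChIP H1.2, 28.2% and 26.5% in xxChIP H1.5, and 12.6% and 11.3% in xChIP H1.2. The share covered to at least 50% was 21.5% and 15.6% in xxChIP H1.2, and 17.8% and 10.4% in xxChIP H1.5. At this composition the share with at least 50% of the body under xChIP H1.2 peaks was 2.45% in ZNF genes (4 of 163) and 0% in the others (0 of 77, where the limit of 3 counts allows a share of up to 3.896%), so that no difference in either direction was detectable. Across the 246 members, body coverage and GC content of the body had a Spearman rho of -0.53 in xxChIP H1.2 and -0.57 in xxChIP H1.5, against 0.20 in xChIP H1.2 and -0.06 in xChIP H1.5. These are correlations across genes that share libraries and often neighbourhoods, and are given as a description.

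**Figure D2:**
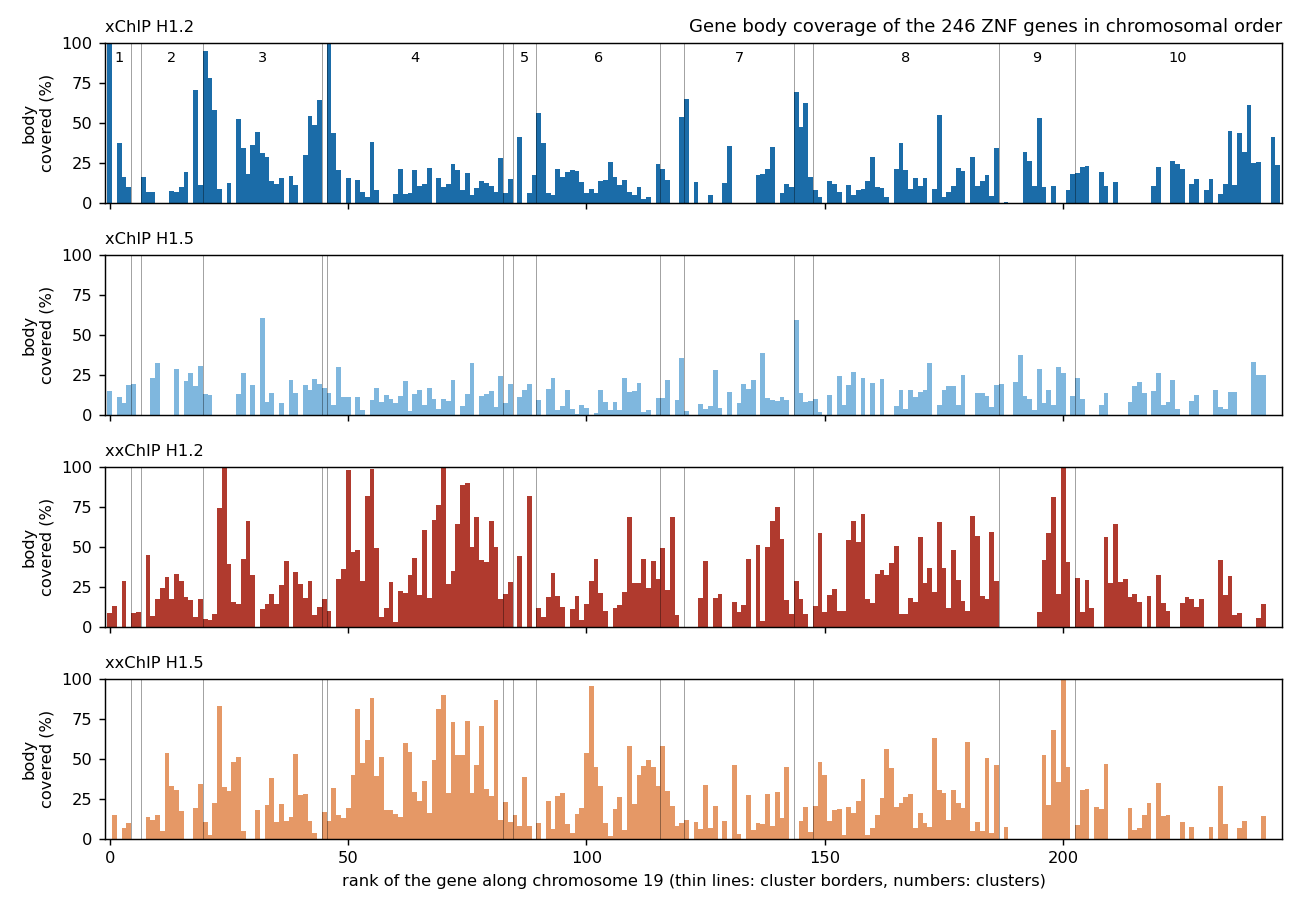
Gene body coverage (% of bases under peaks) of each of the 246 ZNF genes in each list, ordered by rank along chromosome 19. Thin lines separate the 10 numbered clusters and the 14 genes outside them. In cluster 4 the median body coverage was 41.5% in xxChIP H1.2, with 39.2% in xxChIP H1.5. The xChIP H1.2 bars averaged 28.7% in the 40 members at cluster edges against 12.7% in the 192 interior ones. Their medians were closer, at 17.7% and 10.3%.

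The most covered members differed between the protocols. ZNF729, with 34 fingers (ENSG00000196350, chr19:22469243-22499978, plus strand), was covered to 100% and 89.5% by the xxChIP lists, H1.2 first, and to 10.0% and 9.89% by the xChIP lists. It lay inside an xxChIP H1.2 peak of 66679 bp, the longest of that list in any cluster. ZNF470, with 17 fingers (ENSG00000197016, chr19:57078837-57100279, plus strand), was covered to 100% and 99.3% by the xxChIP lists, to 26.0% by xChIP H1.5 and to 0% by xChIP H1.2. In both genes the xxChIP lists were high together and xChIP H1.2 was low.

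The xxChIP lists did not always go together. ZNF491 (ENSG00000177599, chr19:11908482-11920437, plus strand) was covered to 100% by xxChIP H1.2 but 32.4% by xxChIP H1.5, with 0% in both xChIP lists. ZNF829 (ENSG00000185869, chr19:37379026-37407193, minus strand) was the opposite case, with 28.6% by xxChIP H1.2 against 95.1% by xxChIP H1.5. Over the 246 members, the body coverages of the xxChIP lists had a Spearman rho of 0.53, and those of the xChIP lists one of 0.15.

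The 3 members most covered by xChIP H1.2 each opened a cluster, having the lowest coordinate in it. ZNF554 (ENSG00000172006, chr19:2819866-2836733, plus strand) was covered to 100%, 15.1%, 8.83% and 0% by the 4 lists. ZNF101 (ENSG00000181896, chr19:19779605-19794318, plus strand) was covered to 100%, 13.9%, 9.69% and 10.9% in the same order. ZNF653 (ENSG00000161914, chr19:11594242-11616654, minus strand), with 3 fingers and no KRAB core match, was covered to 94.5%, 13.1%, 4.63% and 10.53%. All 3 had a promoter GC content above the members' median, from 58.6% to 64.2%.

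The highest xChIP H1.5 values were lower than those of the other lists. They were 60.7% in ZNF844, 59.3% in ZNF296, a gene outside the clusters, and 38.4% in ZNF227. ZNF844 and ZNF296 were also under xChIP H1.2 peaks over 31.3% and 69.3% of their bodies, and none of the 3 was covered above 28.7% by an xxChIP list. In 3 short genes, ZNF576, ZNF524 and ZNF324B, no list had a peak anywhere in the body. Their bodies were GC-rich among the members, from 50.3% to 62.2%, and between 3117 and 6223 bp long. How many of the other genes had no peak of any list in the body was not counted.

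The third comparison concerned the 3′ exon, which in most members encodes the finger array. An xxChIP H1.2 peak overlapped it in 117 ZNF genes, or 47.6% (41.4% to 53.8%), against 5.97% (4.76% to 7.46%) of the other genes. For xxChIP H1.5 there were 96 ZNF genes, or 39.0% (33.1% to 45.2%), against 5.71% (4.53% to 7.18%). An xChIP H1.2 peak was found there in 38 ZNF genes, or 15.4% (11.5% to 20.5%), against 43.1% (40.3% to 45.9%), and an xChIP H1.5 peak in 57, or 23.2% (18.3% to 28.8%), against 13.7% (11.9% to 15.8%). The shares over the whole chromosome were 38.4%, 15.3%, 13.1% and 11.4%. A peak of either xxChIP list and of neither xChIP list lay at the 3′ exon of 98 ZNF genes (39.8%) and 59 other genes (4.96%).

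A longer exon is more easily touched by a peak, so the share of its bases under peaks was compared as well. On average, peaks covered 29.1% of a ZNF 3′ exon in xxChIP H1.2 and 22.3% in xxChIP H1.5, against 3.83% and 3.76% in the other genes. The mean was 7.09% against 37.3% for xChIP H1.2, and 9.32% against 7.82% for xChIP H1.5. The last 1000 bp of each gene were also taken, or the whole gene where it was shorter. The shortest member was 3117 bp long and the shortest other gene 153 bp. In this window the xxChIP H1.2 shares were 30.5% and 5.88% and the xxChIP H1.5 shares 28.9% and 6.39%. The xChIP H1.5 shares were 13.8% and 14.5%, so the higher xChIP H1.5 share at ZNF 3′ exons was not seen there.

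The difference in both xxChIP lists was also present among exons of low GC content. Among 3′ exons under 45% GC (205 ZNF and 117 other genes), an xxChIP H1.2 peak overlapped 55.6% of ZNF and 23.9% of other exons, and mean coverage was 34.5% and 17.7%. For xxChIP H1.5 the shares were 44.4% and 18.8%, and mean coverage was 26.1% and 12.9%. For xChIP H1.2 they were 13.7% and 16.2%. Recurring sequence moved with the result also. A median of 9.19% of the 31-base words of a ZNF 3′ exon occurred more than once on the chromosome, against 0% in other genes, and only uniquely mappable reads had been kept. Among the 82 members with the fewest recurring words the xxChIP H1.2 share was 31.7%, and among the 82 with the most it was 62.2%. The part of recurring sequence was not tested.

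The peaks themselves were longer in xxChIP. The 123 xxChIP H1.2 peaks over a ZNF 3′ exon had a median length of 3707 bp and the 100 of xxChIP H1.5 one of 3144 bp, against 2368 bp for 43 xChIP H1.2 peaks and 2241 bp for 66 xChIP H1.5 peaks. Among them, 19 and 13 xxChIP peaks and 3 and 0 xChIP peaks, H1.2 first, were of 20 kb or more. Without peaks of that length, an xxChIP H1.2 peak overlapped the 3′ exon in 39.0% of the ZNF genes and 5.13% of the others, and one of xxChIP H1.5 in 33.7% and 5.38%. For xChIP H1.2 the shares without them were 14.2% (10.4% to 19.1%) and 20.6%, a smaller difference than over all peaks.

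ZNF genes on other chromosomes lay in between at the 3′ exon. Their shares over the 4 lists were 37.02%, 17.2%, 20.2% and 13.7%. The xxChIP intervals, 15.8% to 25.5% and 10.1% to 18.4%, overlapped neither those of the chromosome 19 ZNF genes nor those of its other genes.

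Within single ZNF genes the ends were unlike each other in the xxChIP lists. A peak of xxChIP H1.2 lay at the 3′ exon and not at the promoter in 78 members and at the promoter alone in 24, and for xxChIP H1.5 the counts were 73 and 25. In xChIP H1.2 the order was reversed, with 22 and 56 members, and in xChIP H1.5 the counts were 52 and 48. In the other genes of the chromosome the promoter alone was more frequent in every list, with 86 against 52 genes for xxChIP H1.2, but their 3′ exons are mostly shorter than the promoter window. As shares of bases, 3′ exon minus promoter coverage averaged 18.7 and 11 points in the ZNF genes in the xxChIP lists, H1.2 first, and -0.19 and -0.143 points in the other genes. No member had a peak of all 4 lists at its promoter, and none at its 3′ exon (0 of 246, where the limit of 3 counts allows a share of up to 1.22%). This was rare in the other genes also, at 5 of 1190 promoters (0.420%) and 2 of 1190 3′ exons (0.168%). In this the members did not stand apart.

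The profile in steps of 100 bp located the difference. At the TSS itself 8.13% of ZNF genes lay under an xxChIP H1.2 peak, against 28.05% at 2500 bp upstream and 22.4% at 2500 bp downstream. For xxChIP H1.5 the values were 9.76%, 23.6% and 18.3%. The other genes also had lower values at the TSS, with 3.45% against 9.16% at 2500 bp upstream in xxChIP H1.2. The TSS thus stood in a trough of both xxChIP lists about as low as the values in xChIP H1.5, and the 3′ end showed no comparable trough, with 22.4% and 23.6% at the gene end. The xChIP H1.2 values were 17.9% at the TSS and 8.54% at the gene end, and their lowest stretch lay over the last part of the gene.

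**Figure D3:**
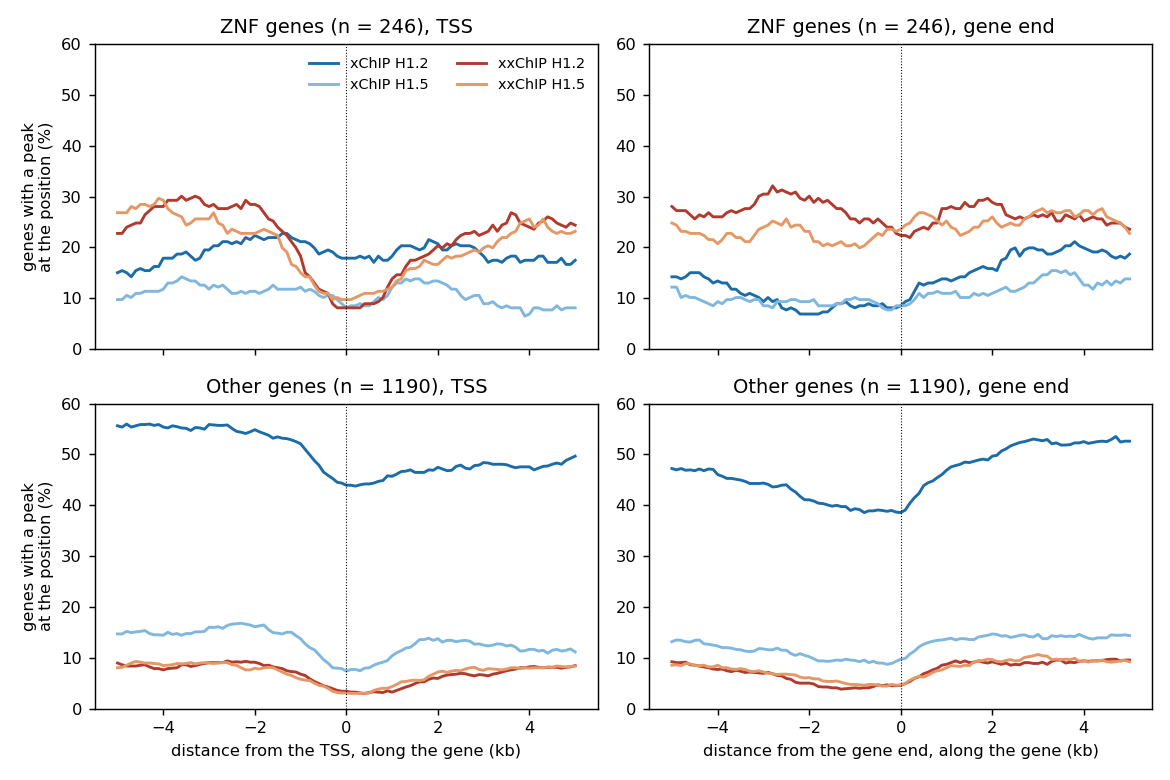
Share of genes (%) lying under a peak at each distance (kb) from the TSS and from the gene end, for the 246 ZNF genes (top) and the 1190 other genes (bottom), 1 line per list. Around ZNF start sites both xxChIP lines dip to 8.13% and 9.76%, whereas at ZNF gene ends they are at 22.4% and 23.6%.

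The bases of the clusters were then divided by place to see whether 3′ exons stood out from their surroundings. Peaks of xxChIP H1.2 covered 31.2% of the bases of members' 3′ exons, 30.6% of the rest of their bodies, 32.1% of the sequence between genes and 10.6% of the TSS windows. For xxChIP H1.5 the values were 23.6%, 27.7%, 32.5% and 11.8%. The bodies of other genes in the clusters were covered to 22.6% and 25.3% by these lists. The 3′ exons were thus covered like, or less than, the rest of the members' bodies and the sequence between genes by the xxChIP lists, and the promoters were the part covered least. In xChIP H1.2 the 3′ exons were lowest, at 6.95%, against 17.5% in the rest of the bodies, 18.5% in TSS windows, 20.7% between genes and 24.3% in the bodies of other genes. The xChIP H1.5 values spanned only 9.55% to 13.4% over these places.

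Named 3′ exons show both kinds of pattern. ZNF560 (ENSG00000198028, chr19:9577031-9609292, minus strand), ZNF836 (ENSG00000196267, chr19:52657117-52674896, minus strand) and ZNF667 (ENSG00000198046, chr19:56950694-56989434, minus strand) had the largest excess of 3′ exon over promoter coverage in xxChIP. In each of them both xxChIP lists covered the 3′ exon to 100% and the promoter to 0%, and xChIP H1.2 covered neither. xChIP H1.5 covered 36.7% of the 3′ exon and 24.7% of the promoter of ZNF836. It also covered 1.70% of the ZNF560 promoter. At ZNF560 the xxChIP H1.2 peak over the exon of 1980 bp ran from 9575957 to 9579663, and that of xxChIP H1.5 from 9575872 to 9579810, so that their borders nearly coincided. At ZNF667 both peaks extended far beyond the exon, with lengths of 39401 and 29949 bp.

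In xChIP the same rule picked members of a different kind. ZNF69, on the plus strand (ENSG00000198429), was covered over its 3′ exon to 100%, 0%, 37.4% and 0% by the 4 lists. ZNF83 (ENSG00000167766) and ZNF274 (ENSG00000171606) were covered there to 100% by xChIP H1.5 and to 0% by the 3 other lists. ZNF274 encodes a KRAB zinc finger protein that binds the 3′ ends of other ZNF genes and brings SETDB1 to them. No list had a peak at its own promoter, and its body was covered to 11.4%, 14.5%, 7.57% and 0%.

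Other members with known roles varied widely. ZNF91 and ZNF93 encode repressors of retrotransposons. The promoters of both were covered to 100% by both xxChIP lists. The body of ZNF93 was covered to 97.7% by xxChIP H1.2 but only to 19.4% by xxChIP H1.5, whereas that of ZNF91 was covered to 41.5% and 70.2%, and the 3′ exon of ZNF91 to 0% and 100%. Neither 3′ exon had an xChIP H1.2 peak, and xChIP H1.5 covered 56.9% of that of ZNF91 and 58.9% of that of ZNF93.

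ZNF208, the member with the most fingers (36), had a promoter covered to 100% by both H1.2 lists and to 0% by both H1.5 lists. Its 3′ exon of 8713 bp was covered to 36.2% by xxChIP H1.5 and to 0% by the rest. ZNF675, whose product inhibits TRAF6 signalling, had no peak at its promoter, and xxChIP H1.2 alone covered its 3′ exon, to 100%. ZNF331, an imprinted gene, had no promoter peak in any list, and its 3′ exon was covered to 50.7% and 11.3% by the xChIP lists and to 0% by the xxChIP lists.

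ZNF44, ZNF224 and ZNF304 shared another pattern, in which xChIP H1.5 alone had a promoter peak, covering 72.1%, 75.7% and 37.98%. ZNF224 encodes a repressor of the aldolase A gene. The 3′ exons of ZNF224 and ZNF304 had no peak of any list, and that of ZNF44 was covered to 32.7% by xxChIP H1.5 only. Promoters with xChIP H1.5 as their sole list were found in 26 of the 246 members (10.6%), against 58 of the 1190 other genes (4.87%). With or without other lists, an xChIP H1.5 peak lay at 21.5% and 20.8% of promoters, near equal shares. Peaks of both xChIP lists and of neither xxChIP list lay at 6.10% of ZNF and 13.0% of other promoters. The sole-list counts thus do not show more xChIP H1.5 peaks at ZNF promoters.

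Position along the chromosome was described by clusters, defined as runs of at least 5 members with gaps of no more than 500 kb. There were 10 clusters with 232 of the members, and 14 members lay outside them. The clusters held 25.9% of the known bases of the chromosome and, of the bases under peaks on it, 13.3%, 23.3%, 42.1% and 42.3% over the 4 lists. Coverage inside and outside the clusters was 19.1% and 43.6% in xChIP H1.2, and 12.1% and 13.9% in xChIP H1.5. The order was the opposite in the xxChIP lists, at 29.5% and 14.2% in xxChIP H1.2 and at 28.5% and 13.5% in xxChIP H1.5.

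Each cluster was also set beside up to 500 kb on either side, leaving out other clusters. xChIP H1.2 covered all 10 clusters less than their flanks. xxChIP H1.2 covered 8 of 10 more than their flanks and xxChIP H1.5 9 of 10, while xChIP H1.5 covered 2 of 10 more. The flanks of neighbouring clusters could share bases. The 14 members outside the clusters, among them ZNF296 and ZNF473, had promoter peaks in 5, 6, 3 and 1 and 3′ exon peaks in 1, 3, 4 and 3 over the 4 lists, too few for a comparison with the clustered members.

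**Figure D4:**
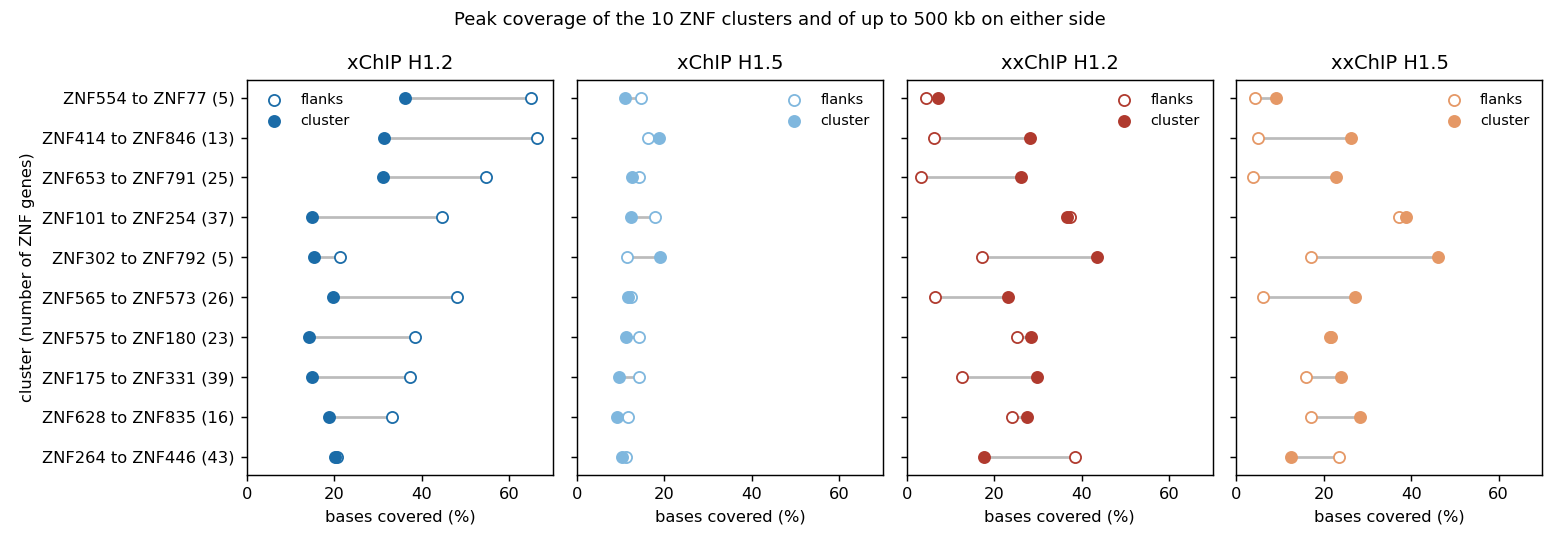
Bases covered (%) in each of the 10 clusters (filled circles) and in up to 500 kb on either side (open circles), by list, with the number of ZNF genes in parentheses. The filled circle lies left of the open one in all 10 clusters for xChIP H1.2, and right of it in 8 clusters in xxChIP H1.2 and in 9 in xxChIP H1.5.

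The clusters were not alike. The largest by length, from ZNF101 to ZNF254 (37 members over 4533166 bp, chr19:19779605-24312770), lies beside the centromere and had the lowest GC content, 41.2%. Peaks of the xxChIP lists covered 36.7% (H1.2) and 38.7% (H1.5) of it. An xxChIP H1.5 peak overlapped at least part of the 3′ exon in 32 of its 37 members (86.5%), and one of xxChIP H1.2 in 27 (73.0%). Its flanks were covered as highly, to 37.3% by both. Without this cluster the shares over the remaining 209 members were 30.6% for xxChIP H1.5 at the 3′ exon, and 7.18% for xxChIP H1.5 over at least 50% of the body, against 5.71% and 2.44% of the other genes.

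At the opposite extreme, the cluster from ZNF554 to ZNF77 (5 members, 47.9% GC) had 36.2% of its bases under xChIP H1.2 peaks, 7.21% under those of xxChIP H1.2, and 8.94% under those of xxChIP H1.5. In it 4 of 5 promoters had an xChIP H1.2 peak and no 3′ exon an xxChIP H1.2 peak. The most distal cluster, from ZNF264 to ZNF446 (43 members), departed from the others in being less covered than its flanks by both xxChIP lists, 17.6% against 38.5% in xxChIP H1.2, with 12.4% against 23.6% in xxChIP H1.5. In this cluster 1 of 43 promoters and 10 of 43 3′ exons had an xxChIP H1.5 peak. The small cluster from ZNF302 to ZNF792 had the highest xxChIP coverage of its span, 43.6% and 46.2%, yet the median body coverage of its 5 members was 0% and 8.05%.

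Members at the edges of clusters were set beside those inside them. Of the 40 members that stand first, second, last or last but one in a cluster, 42.5% (28.5% to 57.8%) had an xChIP H1.2 peak at the promoter, against 26.0% (20.4% to 32.7%) of the 192 interior members. Over the other lists in order the promoter shares were 27.5% and 18.8%, 15% and 28.1%, and 17.5% and 20.8%. At the 3′ exon the 4 pairs of shares were 27.5% and 13.5%, 27.5% and 22.4%, 35% and 51.6%, and 40% and 40.1%. The intervals of edge and interior members overlapped in every one of these pairs.

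The other genes that lie in the cluster spans shared the place of the members but not their name. Of these 100 genes, of which 21 had a finger match, 29%, 16%, 19% and 17% had a promoter peak of the 4 lists, with intervals that overlapped those of the members in every list. At the 3′ exon they had an xxChIP H1.2 peak in 19% (12.5% to 27.8%) and one of xxChIP H1.5 in 17% (10.9% to 25.6%), below the 48.7% and 40.1% of the 232 members in clusters. Their 3′ exons were shorter (median 1018 bp) and richer in GC (median 48.1%), and the part of this was not tested. The mean share of exon bases under peaks was 14.1% and 9.51%, against 30.2% and 23.2% in the clustered members.

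Finally, 1-kb bins of the chromosome were compared at like GC content. In bins under 40% GC, xxChIP H1.2 covered 41.0% inside and 44.9% outside the clusters and xxChIP H1.5 40.6% and 41.2%. In bins from 45% to 50% GC the values were 24.4% and 13.7% in xxChIP H1.2, and in xxChIP H1.5 they were 23.1% and 13.1%. The higher xxChIP coverage of clusters was thus seen in the bins of 40% GC or more and not in the most AT-rich ones. xChIP H1.2 covered the clusters less in every band, with 11.4% against 18.2% under 40% GC and 24.3% against 49.9% from 45% to 50%.

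**Figure D5:**
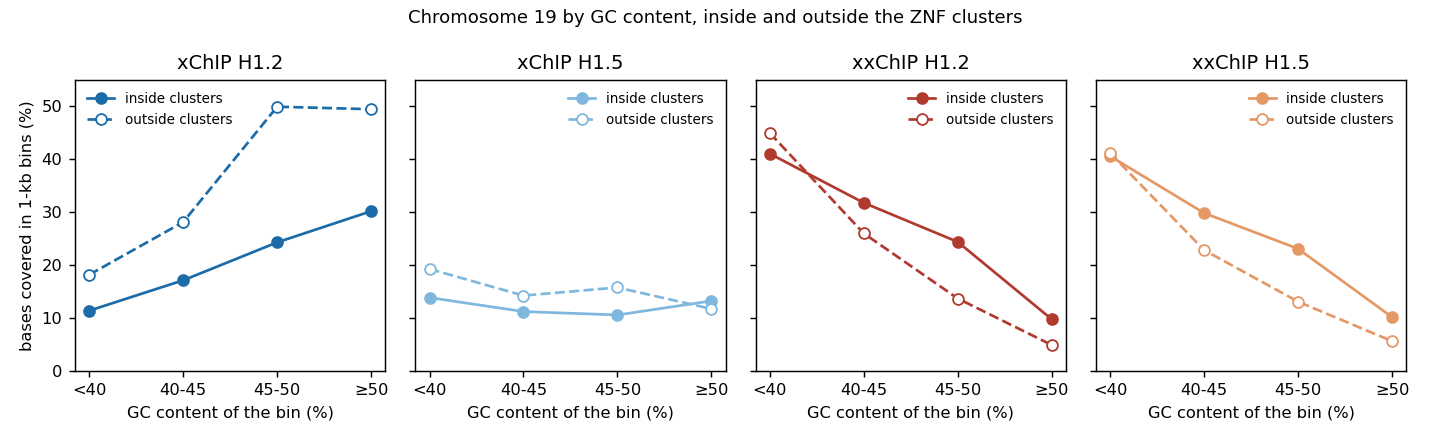
Bases covered (%) in 1-kb bins of chromosome 19 against the GC content of the bin (%), inside (filled) and outside (open) the 10 ZNF clusters, by list. Inside the clusters xxChIP H1.2 goes from 41.0% in the most AT-rich bins to 9.73% at 50% GC or more, and xChIP H1.2 from 11.4% to 30.2%.

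Features of the members that the choice by name did not use were compared next. An xxChIP H1.2 peak lay at the 3′ exon of 54.0% of 174 members with a KRAB core match and 31.9% of 72 without. For xxChIP H1.5 the shares were 43.1% and 29.2%. The xChIP shares were closer, at 13.8% and 19.4% for xChIP H1.2 and 22.99% and 23.6% for xChIP H1.5. The match was to a single sequence pattern, so members without it, ZNF224 among them, may still encode a KRAB domain. An xxChIP H1.2 peak lay at the 3′ exon of 37.6% of members with 10 fingers or fewer, 53.5% of those with 11 to 14 and 52.7% of those with 15 or more. Mean exon coverage by xxChIP H1.2 was 20.5%, 32.5% and 35.6% in these groups, and 32.5% and 21.0% with and without a KRAB core match. The parts of exon length, GC content and cluster in these splits were not tested. By GC content of the 3′ exon, the lowest, middle and highest 82 members gave xxChIP H1.2 shares of 62.2%, 58.5% and 21.95% and xChIP H1.2 shares of 7.32%, 12.2% and 26.8%. By strand the xxChIP H1.2 shares were 50.4% on the plus and 44.2% on the minus strand.

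Genes whose products act with KRAB zinc finger proteins were described as a list of 16 (TRIM28, SETDB1, their partners, heterochromatin proteins and DNA methylation factors). Their promoters overlapped an xChIP H1.2 peak in 12 of 16, an xChIP H1.5 peak in 3, an xxChIP H1.5 peak in 1 and an xxChIP H1.2 peak in none. Over all 19756 genes the promoter shares of xChIP H1.5, xxChIP H1.5 and xxChIP H1.2 were 21.6%, 7.93% and 8.77%, so that these low counts are near the background, and for xChIP H1.2 it was 48.2%. Median coverage of the 16 bodies was 70.4%, 14.3%, 2.69% and 2.11% over the 4 lists, beside 26.2%, 10.2%, 5.86% and 4.25% over all genes and 10.7%, 9.44%, 18.7% and 15.6% in the members. The body of SETDB1, the H3K9 methyltransferase, was covered to 100%, 53.0%, 0% and 4.11% over the 4 lists. That of ATF7IP, also in the list of 16, went the other way between the H1.2 lists, with 13.1% in xChIP H1.2 and 23.4% in xxChIP H1.2. TRIM28, the corepressor bound by KRAB domains, lies on chromosome 19 distal to the last cluster (ENSG00000130726, chr19:59055431-59062089, plus strand), and its only peak was an xChIP H1.2 peak over 37.98% of the promoter window.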

How the data were processed

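Per the paper's methods, the authors mapped the read pairs to hg19 using Bowtie2 and discarded reads without a unique position. Peaks were called in each replicate with MUSIC, and those of 3 replicates were then merged. The 4 deposited lists hold merged start and end positions without a score, so the depth of each replicate, and the precision it gives, is unknown. The 6 Input samples were not used here. Gene models were those of GENCODE v44 on GRCh37. Members were protein-coding genes with a protein-coding transcript and a name of ZNF, a number and at most 1 letter. The 3′ exon was the last exon of the MANE Select transcript (242 members), else of the canonical or longest coding transcript. Coverage is the percent of bases under peaks (numpy 2.4.6), shares carry 95% Wilson intervals (scipy 1.17.1), and figures were drawn with matplotlib 3.10.9. The coverage code was tested on 2000 simulated intervals. Fingers and KRAB cores were pattern matches in translated GENCODE coding sequence, which replaced the RefSeq protein planned. Recurring sequence was counted as 31-base words found more than once on either strand. Alternative windows, thresholds, peak lengths, names, transcripts and cluster gaps were tried.

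Named members were 9 known examples, the first and last of each cluster, the 3 most covered bodies per list, the 3 with the largest excess of 3′ exon over promoter coverage per protocol, members with peaks of all 4 lists (none), and those with an uncovered body. The members, gene lists and measures were chosen with earlier results of these data known. ZNF470 and ZNF554 were shown as sequence after their values were seen.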

Additional observations from a re-analysis of the deposited data

How the results depend on the processing

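No paired analysis was possible because each list merges its 3 replicates and carries no replicate number, and leaving out a replicate could not be run for the same reason. Of 124 values computed for 16 results under their alternatives, 7 changed their order against the other genes and 39 shares of ZNF genes moved beyond their Wilson interval. Those values are given below in list order as shares of ZNF genes, mostly beside those of the other genes. The cause of none was tested. Restriction by GC content and removal of the cluster from ZNF101 to ZNF254 were chosen after seeing the data.

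Promoter peaks were found in 23.6%, 12.6%, 12.6% and 13.0% within 500 bp of the TSS, in 43.5%, 29.3%, 50.8% and 40.2% within 2500 bp, and in 18.3%, 8.13%, 8.13% and 9.76% where 50% of the window had to be covered. Under 50% GC they were found in 19.7%, 23.7%, 28.9% and 27.6%. The order against other genes turned for xChIP H1.5 within 500 bp (12.9% in others), within 2500 bp (35.8%) and under 50% GC (24.8%), and for xxChIP H1.2 under 50% GC (29.1%).

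Gene bodies were touched by at least 1 bp in 74.4%, 73.2%, 82.1% and 80.5%, against 82.9%, 59.4%, 42.5% and 41.0% of the other genes. There the xChIP H1.5 order turned. Bodies were covered to at least 90% in 1.22%, 0%, 2.03% and 0.813%, against 19.2%, 0.252%, 0.504% and 0.420%. Without peaks of 20 kb or more, the shares covered to 50% were 4.07% in xChIP H1.2, 6.50% in xxChIP H1.2 and 5.29% in xxChIP H1.5. Under 45% GC they were 2.45% in xChIP H1.2, where the order turned on counts of 4 and 0 (0% in others). In xxChIP H1.2 they were then 21.5% against 15.6% in others, and in xxChIP H1.5 17.8% against 10.4%. Without the ZNF101 to ZNF254 cluster the share was 7.18% in xxChIP H1.5.

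At the 3′ exon the shares were 9.02%, 14.3%, 35.7% and 25.4% for its coding part, 10.6%, 13.8%, 30.5% and 28.9% for the last 1000 bp, where the xChIP H1.5 order turned (14.5% in others), and 5.69%, 7.32%, 28.9% and 19.9% where 50% of the exon had to be covered. In xxChIP H1.2 the share was 39.0% without peaks of 20 kb or more and 55.6% under 45% GC, and in xxChIP H1.5 it was 30.6% without the ZNF101 to ZNF254 cluster. Coverage of the clusters moved by less than the SD between clusters with gaps of 250 kb or 1 Mb, in bins under 45% GC and without that cluster, and its order against the rest of the chromosome held. In bins under 45% GC the difference from the rest of the chromosome shrank, however, from 15.3 to 2.34 points in xxChIP H1.2, from 14.9 to 4.54 in xxChIP H1.5 and from -24.5 to -9.62 in xChIP H1.2. Without peaks of 20 kb or more the xChIP H1.2 difference from the other genes shrank from -31.3 to -5.50 points at the promoter and from -27.7 to -6.36 at the 3′ exon. For bodies covered to at least 50% it shrank from -36.9 to -10.3 points. The body difference also shrank in xxChIP H1.2, from 13.2 to 4.99 points, and in xxChIP H1.5, from 9.35 to 3.52.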
